A study of Mus musculus with 24 samples.

Results

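Anaplastic and papillary thyroid tumours of mice were compared on 9 of the 24 arrays of the series. The tissue label decides membership: 5 arrays carry anaplastic thyroid cancer (ATC, an undifferentiated tumour) and 4 carry papillary thyroid cancer (PTC, a differentiated tumour). The other arrays are 6 pools of normal thyroid glands and 9 recurrent tumours. All were hybridised with total RNA on Affymetrix Mouse430A_2 arrays, in a series on how mouse ATC escapes loss of BRAF activity. The normal pools are cited below for their levels, without a test. The labels name no treatment for any of these groups, and titles mark normal pools as WT (4 pools) or Cre (2 pools). The labels do not state tumour genotypes, transgene promoters or ages, or whether each tumour came from its own animal. The p-values therefore measure the spread between these samples, which may in part be technical. The samples are labelled as whole thyroid tumours, so an array sums every cell type in the piece of tissue taken.

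A thyroid follicle is a shell of epithelial cells that take up iodide and attach it to thyroglobulin, the protein from which thyroid hormone is cut. Pax8, Nkx2-1, Foxe1 and Hhex are the transcription factors that keep this program on. A papillary cancer keeps part of the program, whereas an anaplastic cancer is defined by its loss, by spindle-shaped or squamous-looking cells and by heavy infiltration with macrophages.

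Values are deposited log2 levels, and a difference of 1 is a 2-fold change. Each of 12394 genes was read through 1 probe set. A gene is called here when limma's adjusted p over all genes is under 0.05, and differences are ATC minus PTC. With this rule 4587 genes were called, 37% of those tested. Of these, 2152 were higher in ATC (17.4% of genes tested) and 2435 were lower (19.6%). Most calls were small, since 2970 stayed under 2-fold and 1179 lay between 2-fold and 4-fold. At least 4-fold higher were 218 genes (1.76%), and 220 were at least 4-fold lower (1.78%). Changes over 16-fold numbered 23 upwards and 34 downwards. Every ATC array lay above every PTC array for 1858 genes (15%) and below for 2167 genes (17.5%). Of the 4587 genes called, 3766 had no overlap between the groups, so a lack of overlap was common among them. The median difference of all genes was -0.06.

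**Figure D1:**
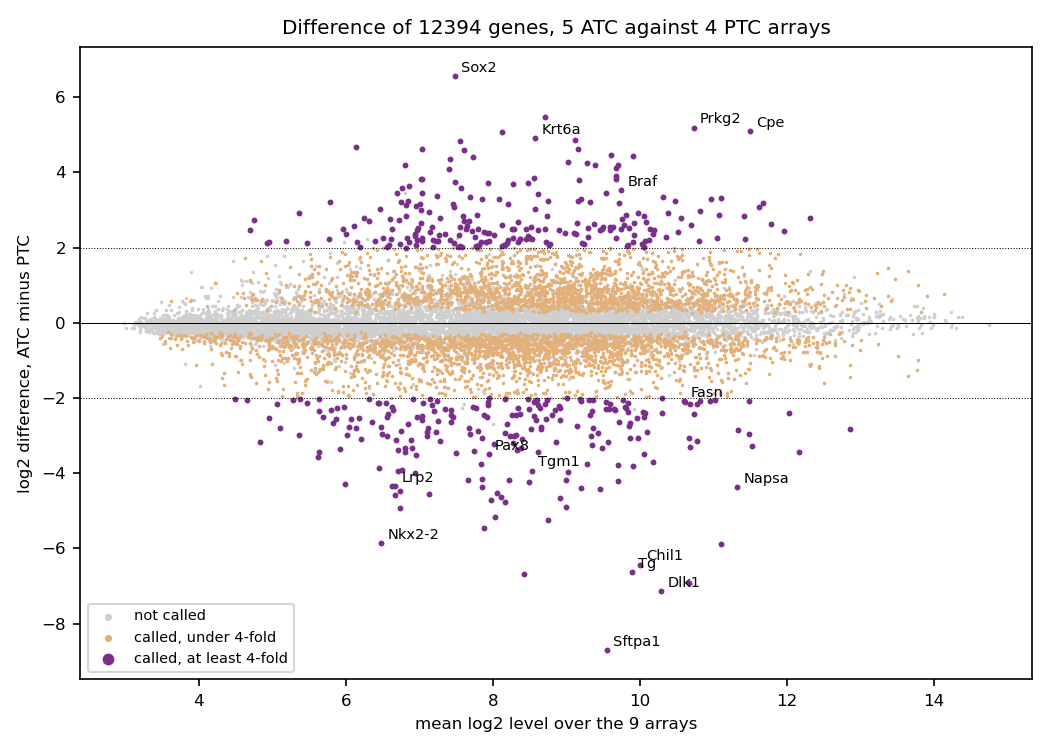
Log2 difference between ATC and PTC (vertical axis) against the mean log2 level over the 9 arrays (horizontal axis), 1 point per gene. Purple points are the 218 genes called and at least 4-fold higher and the 220 at least 4-fold lower in ATC; orange points are called with a smaller difference, grey points are not called, and dotted lines mark 4-fold.

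PTC arrays resembled each other more than ATC arrays did. Over all genes the correlation between 2 PTC arrays was 0.981 to 0.991, and between 2 ATC arrays 0.94 to 0.977. The median SD of a gene was 0.14 in PTC and 0.27 in ATC, and 47 and 434 genes respectively had an SD over 1. The titles hold a further split. ATC arrays 1 and 2 and all 4 PTC arrays have JK in the title, and ATC arrays 3 to 5 have a bare number. Signal at the 3 prime end of Gapdh minus that at its 5 prime end, a sign of RNA length, was 1.11 to 1.6 in PTC, 0.82 and 0.96 on the JK-titled ATC arrays and 0.06 to 0.15 on the others. It moved with both splits, and its part in the differences was not tested. Among JK-titled arrays alone, 2 ATC against 4 PTC, 4396 genes were called. All 4587 genes called on the 9 arrays kept their sign there and 3274 of them were called again, in a fit that uses a part of the same arrays. With a spread shared by all 24 arrays (the shared spread), 2127 genes were called, 2103 of them among the 4587. Of the 2127, 968 were higher in ATC and 1159 lower, among 12394 genes tested. List counts with the shared spread are to be read beside these smaller numbers, not beside 17.4% and 19.6%.

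Several genes for making thyroid hormone fell in ATC, and the loss differed between tumours. Of 17 measured genes of hormone synthesis and iodide handling, 6 fell, 1 rose and 10 did not pass, with a median difference of -0.61. Among JK-titled arrays 7 fell and 3 rose. With dim genes left out 10 members remained, of which 4 fell and 1 rose, and the median was -0.02. Tg, which encodes thyroglobulin, read 13.49, 14.24, 13.46 and 13.11 on PTC arrays 1 to 4. On ATC arrays 1 to 5 it read 5.98, 5.29, 4.46, 13.48 and 5.51. ATC array 4 thus sat inside the PTC range while the other 4 tumours lay far below it. The mean difference of -6.63 (SE 1.6, adjusted p = 0.00992) averages over these cases, and normal pools read 14.8 to 14.96. In a bulk sample fewer thyroid cells and less RNA per thyroid cell cannot be told apart.

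Iyd, the enzyme that recovers iodide from iodotyrosines, showed the same split between tumours. Its levels were 9.95 to 11.24 in PTC, 9.99 on ATC array 4 and 4.56 to 5.52 on the other ATC arrays (difference -4.62, SE 0.99, adjusted p = 0.00544). Dio1, a deiodinase that activates thyroid hormone, read 7.9 on ATC array 4 and 4.3 to 4.58 on the other ATC arrays. PTC arrays read 5.98 to 8.25, and the gene was not called (difference -1.59, adjusted p = 0.143). Tshr, the receptor of thyroid-stimulating hormone, kept the groups apart, with 6.68 to 7.61 in PTC and 4.81 to 6.15 in ATC. Its difference was -1.96 (SE 0.3, adjusted p = 0.000881), though a further probe set of the gene differed by -0.38. ATC array 4 was again the highest ATC array for Tshr.

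Other genes of the follicle fell in all 5 tumours. Lrp2, or megalin, an endocytic receptor that binds thyroglobulin, read 8.53 to 10.11 in PTC and 3.96 to 5.59 in ATC, without overlap (difference -4.35, SE 0.42, adjusted p = 8.47e-05). Folr1, a folate receptor, differed by -1.84 (adjusted p = 0.00235), and PTC arrays at 6.66 to 7.25 were already far below normal pools at 10.61 to 11.8. Slc26a4, the iodide and chloride exchanger pendrin, read 8.69, 7.05, 6.46 and 5.56 on PTC arrays 1 to 4 and 4.34 to 4.75 in ATC, beside 4.55 to 5.23 in normal pools. Its fall by 2.34 (adjusted p = 0.00551) did not pass among JK-titled arrays (adjusted p = 0.0576). The iodide importer Slc5a5 read 6.5 to 6.81 in PTC and 6.27 to 6.78 in ATC, so the ranges overlapped (difference -0.1, adjusted p = 0.609), and normal pools read 7.06 to 7.63. Ano1, a chloride channel of the follicle cell, was the member that rose, from 7.58 to 7.86 in PTC to between 8.99 and 10.07 in ATC (difference 1.7, adjusted p = 0.000807).

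Of 5 thyroid transcription factors listed, 3 were measured, and all 3 were called lower. Pax8 read 9.26, 10.15, 10.19 and 9.94 on PTC arrays 1 to 4. On ATC arrays 1 to 5 it read 6.47, 6.74, 5.78, 7.23 and 5.75, so the groups did not overlap, and ATC array 4, with its Tg in the PTC range, lay below every PTC array. The difference for Pax8 was -3.49 (SE 0.33, adjusted p = 6.44e-05). Hhex differed by -2.4 (SE 0.29, adjusted p = 0.000251), from 11.45 to 11.81 in PTC to between 8.55 and 10.23 in ATC. Nkx2-1 moved little, from a PTC range of 6.09 to 6.23 to an ATC range of 5.26 to 6.1 that overlaps it on array 3, with a difference of -0.45 (SE 0.15, adjusted p = 0.0422). That call was lost without any 1 of 7 arrays: each PTC array and ATC arrays 1, 4 and 5 (up to adjusted p = 0.104 without PTC array 3). Normal pools read 6.11 to 6.68 for Nkx2-1, beside 11.12 to 11.98 for Pax8. Its probe set thus read low in every group, and a small difference on it says little about how much Nkx2-1 was kept.

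Transcription factors of other lineages came on. Sox2, a factor of stem cells and of the early foregut, was near the bottom of the scale on PTC arrays, at 3.76, 3.76, 3.99 and 3.82. ATC arrays 1 to 5 read 10.46, 10.74, 9.01, 11.26 and 10.55. Every tumour had it, array 4 included (difference 6.57, SE 0.37, adjusted p = 4.46e-06). No detection calls were used here, so a difference from so low a level is a value on this scale, and the true fold may be larger. Sox11, a neural and progenitor factor, rose by 3.35 (adjusted p = 0.000245) and Gata6, an endoderm factor, by 1.8 (adjusted p = 0.000475), both without overlap. Hmga2, a chromatin protein of embryonic growth, was high in PTC already (10.05 to 11.66) and higher in ATC (11.56 to 12.76), with ATC array 4 inside the PTC range. Of 18 measured foregut, stem and progenitor factors, 7 rose and 3 fell, and 0 fell without PTC array 2. With the shared spread 3 rose and 0 fell. Nkx2-2, a neuroendocrine and gut factor, moved the other way, from 8.88 to 10.15 in PTC to between 3.43 and 4.28 in ATC (difference -5.86, SE 0.28, adjusted p = 1.74e-06).

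**Figure D2:**
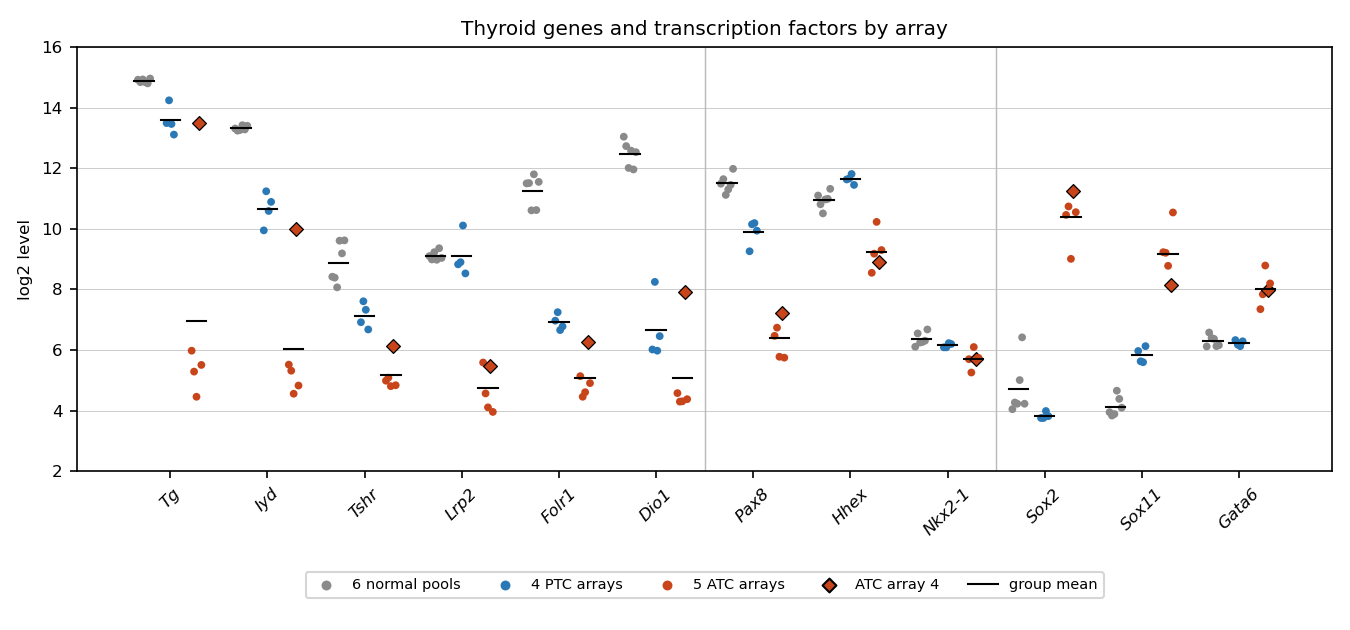
Log2 level (vertical axis) of 6 thyroid genes, 3 thyroid transcription factors and 3 progenitor factors on the 6 normal pools (grey), 4 PTC arrays (blue) and 5 ATC arrays (orange), with group means as black lines. ATC array 4, drawn as a diamond, reads 13.48 for Tg, 9.99 for Iyd, 7.23 for Pax8 and 11.26 for Sox2.

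The steepest losses included genes of lung surfactant and airway secretion, which PTC arrays carried at high levels. Surfactant proteins coat the alveoli of the lung, whose epithelium shares Nkx2-1 with the thyroid. Of 17 measured genes of surfactant and airway, 12 fell and 0 rose, 9 of them at least 4-fold, with a median difference of -2.14. The JK-titled arrays alone called 10 of them lower. Sftpa1 read 14.29 to 14.49 on the 4 PTC arrays and 4.72, 5.66, 8.92, 4.6 and 4.48 on ATC arrays 1 to 5 (difference -8.71, SE 0.81, adjusted p = 6.38e-05). Array 3 stood above the other ATC arrays and still far below PTC. Sftpb differed by -5.89 (adjusted p = 0.000101) and Sftpd by -6.91 (adjusted p = 0.000165), with no overlap. Normal pools read 4.5 to 7.18 for Sftpa1 and 7.3 to 8.15 for Sftpb, levels that the ATC ranges include.

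Several partners of surfactant fell with it. Napsa, a protease that matures surfactant protein B, read 13.46 to 13.96 in PTC and 8.86 to 9.76 in ATC (difference -4.37, SE 0.19, adjusted p = 1.1e-06). Ager, a receptor abundant on alveolar cells, fell by 4.39, Slc34a2, a phosphate transporter, by 3.39, and Aqp5, a water channel, by 3.49, each without overlap. Normal pools read 11.15 to 12.89 for Napsa and 11.93 to 12.51 for Ager, so for both every ATC array lay below the normal glands as well. Airway secretory genes split off from this pattern on a single array. Scgb3a1, a secretoglobin of club cells, read 14.48 on ATC array 2 and 6.48 to 9.33 on the other ATC arrays, against 7.07 to 10.24 in PTC. Muc5b, an airway mucin, read 12.52 on ATC array 2 and 5.89 to 7.73 elsewhere in ATC, and Krt4, a keratin of the oesophagus and other moist linings, read 12.74 there and 5.61 to 6.17 on the other 4. Cyp2f2, a club cell enzyme, was 11.83 on ATC array 2, inside the PTC range of 10.66 to 12.04, and 4.89 to 7.25 on the others (difference -4.17, adjusted p = 0.0227). Its call was lost without PTC array 1, 2 or 3 or ATC array 5 (up to adjusted p = 0.0576 without PTC array 2), and among JK-titled arrays its difference was -1.78. Of 10 markers of cartilage and trachea, 1 rose and 3 fell (1 and 1 with the shared spread), and their mean level was 6.11 to 6.81 in PTC and 5.65 to 6.19 in ATC, with 6.1 on ATC array 2. Whether airway tissue in the sample has a part in this was not tested.

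Further steep losses held genes of varied function. They were chosen from called genes without overlap, so their lack of overlap follows from that choice. Dlk1, an imprinted ligand of the Notch family, read 14.11 to 14.36 in PTC and 5.89 to 8.06 in ATC (difference -7.13, SE 0.35, adjusted p = 2.24e-06), and normal pools read 6.22 to 7.11. Chil1, a secreted chitinase-like protein, fell by 6.43, and Col9a1, a collagen of cartilage, by 6.69, where a further probe set differed by -1.96. Trpv6, a calcium channel of absorbing epithelia, fell by 4.72, Atp6v1c2, a subunit of the proton pump, by 4.9, and Arg2, the mitochondrial arginase, by 4.65. Scg5, a chaperone of secretory granules, read 10.24 to 11.27 in PTC and 3.74 to 5.34 on 4 ATC arrays. It read 8.25 on ATC array 4, the array with Tg in the PTC range, and 11.37 to 12.3 in normal pools. Its difference was -5.46 (SE 0.75, adjusted p = 0.000528).

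The epithelial program was lost in part. Of 34 measured genes of epithelial adhesion and polarity, 14 fell, 0 rose and 20 did not pass, with a median difference of -0.74, and among JK-titled arrays 13 fell and 2 rose. With the shared spread 4 fell. Cdh1, which encodes E-cadherin, was not among the losses. It read 12.02 to 12.2 in PTC, 12.32, 12.5, 12.62 and 12.51 on ATC arrays 1, 2, 3 and 5, and 10.94 on array 4 (difference 0.08, SE 0.31, adjusted p = 0.853). Epcam, an adhesion molecule of epithelia, was also lowest on ATC array 4, at 10.57, while the other 4 ATC arrays (12.47 to 12.81) overlapped PTC (12.55 to 12.99; adjusted p = 0.389). Krt8 and Krt18, the keratins of simple epithelia, stayed at 13.1 or more on every ATC array, with differences of 0.46 (adjusted p = 0.134) and 0.72 (adjusted p = 0.0116). Krt19 was 11.81 to 12.79 on 4 ATC arrays and 8.47 on array 4 (difference 0.19, adjusted p = 0.863).

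Members that fell the most included surface proteases and junction proteins. Prss8, or prostasin, read 10.09, 10.39, 10.16 and 10.26 in PTC and 6.91, 7.89, 8.2, 6.66 and 7.3 in ATC (difference -2.83, SE 0.29, adjusted p = 0.000118). St14, or matriptase, which works in a cascade with prostasin at the cell surface, differed by -2.67 (adjusted p = 0.000383). The sorting adaptor Ap1m2 differed by -2.12, the tight junction protein Cldn3 by -1.94, the desmosome cadherin Dsc2 by -1.86 and plakoglobin, Jup, by -1.19, each without overlap. ATC array 4 was the lowest array for St14, Ap1m2, Cldn3, Dsc2 and Jup. The mean level of the 34 genes was 9.31 to 9.72 in PTC, 8.88 to 9.25 on 4 ATC arrays and 7.57 on array 4. Without that array the count was 14 lower and 2 higher, and the median difference was -0.38.

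Some genes of stressed or squamous epithelium rose steeply, while most of their lists did not pass. Of 15 measured keratins 4 rose and 0 fell (9 rose without ATC array 4, and 2 with the shared spread). Of 18 genes of the squamous program and cornified envelope 4 rose, 1 fell and 13 did not pass, a share of rises near that over all genes, with a median difference of 0.58. Without ATC array 2 this list held 3 falls and a median of 0.02, and with the bare-number ATC arrays alone 3 rises, 5 falls and a median of -0.03. Krt6a, a keratin of wounded epidermis, read 5.11, 5.12, 7.11 and 6.03 in PTC and 12.39, 10.91, 9.53, 9.87 and 11.1 in ATC (difference 4.92, SE 0.6, adjusted p = 0.000298), with 2 other probe sets at 2.67 and 1.92. Krt14, a basal keratin, rose by 3.22 and Krt16, the partner of Krt6a, by 3.12, both without overlap, although another probe set of Krt14 differed by 0.42. Sprr1a, a precursor of the cornified envelope, read 6.88 to 7.35 in PTC and 11.88, 11.7, 12.62, 9.92 and 11.79 in ATC (difference 4.45, SE 0.44, adjusted p = 9.25e-05). Ivl, or involucrin, another envelope protein, rose by 3.28 (adjusted p = 0.000409) and Anxa8 by 2.09. Tgm1, the transglutaminase that cross-links these envelope proteins, went the opposite way, from 10.46 to 11.14 in PTC to between 6.31 and 7.58 in ATC (difference -3.93, SE 0.26, adjusted p = 8.54e-06).

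**Figure D3:**
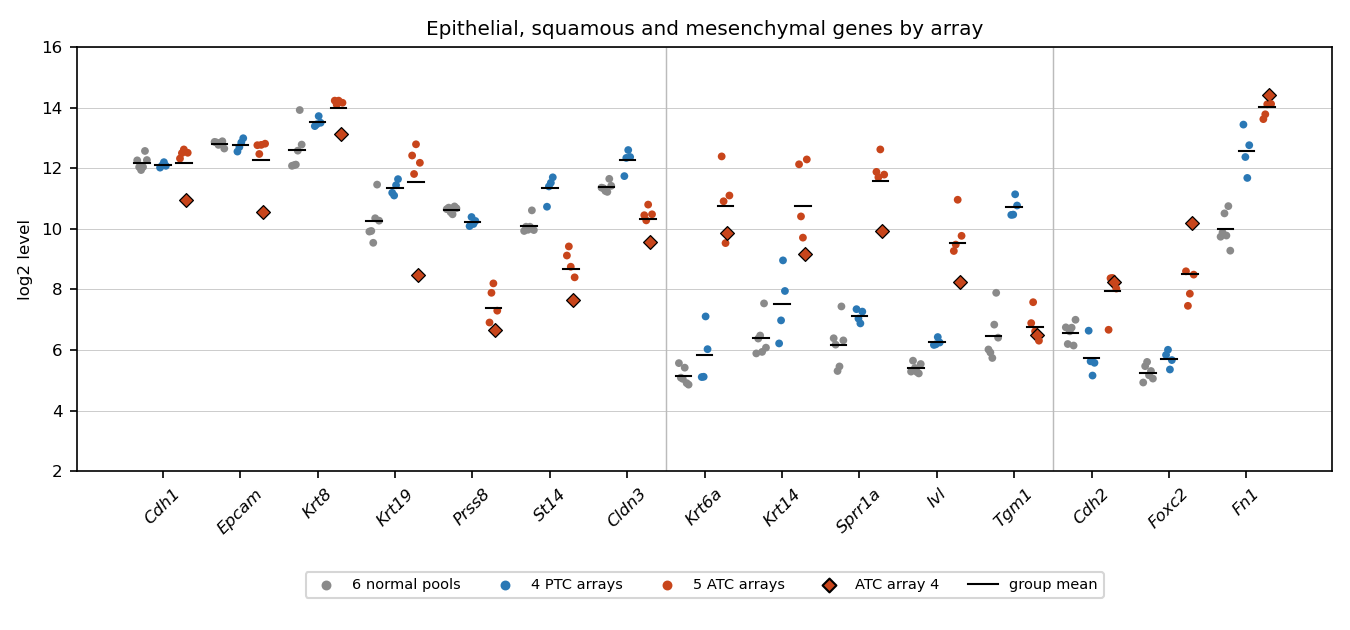
Log2 level (vertical axis) of 7 epithelial genes, 5 squamous genes and 3 mesenchymal genes on the 6 normal pools (grey), 4 PTC arrays (blue) and 5 ATC arrays (orange, array 4 as a diamond), with group means as black lines. Array 4 is the lowest ATC array for Cdh1 (10.94), Epcam (10.57) and Krt19 (8.47) and the highest for Foxc2 (10.18).

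Mesenchymal genes rose. Of 20 measured genes of the mesenchymal transition, 16 rose and 0 fell (14 and 1 without ATC array 4), with a median difference of 1.21. Among JK-titled arrays 12 rose, and with the shared spread 7 rose. Foxc2, a transcription factor of mesoderm, read 5.36 to 6.01 in PTC and 8.6, 7.46, 7.86, 10.18 and 8.49 in ATC (difference 2.8, SE 0.47, adjusted p = 0.00149). Cdh2, or N-cadherin, rose by 2.19 (adjusted p = 0.0024), from 5.16 to 6.64 in PTC to between 6.67 and 8.38 in ATC, with ATC array 1 lowest at 6.67. Snai1, a repressor of E-cadherin, rose by 1.06 (adjusted p = 0.00241), and actin of smooth muscle, Acta2, by 1.92 (adjusted p = 0.000807), though its other probe set differed by 0.29. Vim, the intermediate filament vimentin, was high in both groups, 11.65 to 13.13 in PTC and 12.87 to 13.77 in ATC. Its difference of 0.87 (adjusted p = 0.0415) was lost without PTC array 2, 3 or 4 or ATC array 3, 4 or 5, up to adjusted p = 0.0989 without PTC array 3.

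Matrix genes rose with them. Of 32 measured collagens and matrix proteins, 19 rose and 0 fell (9 rose and 1 fell among JK-titled arrays, and 11 rose with the shared spread), with a median difference of 0.97. Vcan, the proteoglycan versican, read 9.15, 7.87, 6.74 and 8 in PTC and 10.75, 10.24, 11.33, 11.29 and 12.02 in ATC (difference 3.19, SE 0.47, adjusted p = 0.000816). Tnc, or tenascin C, rose by 2.84 (adjusted p = 0.00142) and Fbln2, or fibulin 2, by 2.6 (adjusted p = 0.000195), again without overlap. Lama3, a laminin chain of epithelial basement membrane, rose by 3.36 (adjusted p = 0.00432), and it was lowest on ATC array 4, at 9.23 against 11.54 to 13 on the others. Fn1, or fibronectin, rose by 1.45 (adjusted p = 0.00592), and by 1.14 among JK-titled arrays, where it was not called (adjusted p = 0.0814).

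Markers of stromal cells moved alongside. Of 11 fibroblast markers 6 rose (2 with the shared spread) and 0 fell, and their mean level was 8.55 to 9.56 in PTC and 9.44 to 10.44 in ATC, highest on array 4. Pdgfrb, a growth factor receptor of fibroblasts and pericytes, read 9.83 to 10.74 in PTC, 11.37 to 11.81 on 4 ATC arrays and 12.87 on array 4 (difference 1.58, adjusted p = 0.00424). Of 9 pericyte and smooth muscle markers 3 rose (1 with the shared spread), with means of 7.85 to 8 in PTC and 8.16 to 9.13 in ATC. Of 20 endothelial markers 7 rose (1 with the shared spread) and 0 fell, with means of 7.7 to 7.92 and 8.13 to 8.36, among them Vwf, or von Willebrand factor, by 1.03 (adjusted p = 0.00436). The part of these cells in the mesenchymal and matrix gains was not tested.

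Enzymes that cut matrix were raised widely. Of 26 measured matrix proteases and inhibitors, 17 rose and 1 fell, 10 of them rose at least 4-fold, and the median difference was 1.59. JK-titled arrays alone called 12 higher and 3 lower, and the shared spread 10 higher and 0 lower. Mmp13, a collagenase, read 8.72, 7.07, 5.59 and 6.31 on PTC arrays 1 to 4 and 10.49, 10.11, 11.74, 12.79 and 10.71 in ATC (difference 4.24, SE 0.69, adjusted p = 0.0013). PTC array 1, the highest PTC array for Mmp13, was also the highest of its group for Vcan, Tnc, Fbln2 and Fn1. Serpinb2, an inhibitor of plasminogen activators, rose by 4.19 (adjusted p = 4.53e-05), Plau, the urokinase activator, by 3.69 (adjusted p = 7.2e-05), its receptor Plaur by 2.49 and Plat, the tissue activator, by 2.79. Timp1, an inhibitor of metalloproteinases, rose by 2.45, Mmp10 by 2.94, Mmp14, a membrane-bound form, by 1.61 and Adamts4, which cleaves versican and aggrecan, by 2.34. Adamdec1, a protease of tissue macrophages and stroma, rose by 4.86 (adjusted p = 0.000184). None of these genes overlapped between groups.

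RefSeq promoter windows of GRCm38.p6, each 250 bases before and 50 after a start site, were searched on both strands for TGANTCA, the letters that AP-1 factors such as Fosl1 bind. The motif lay in 7.81% of all 32851 windows and in 6.45% of 12567 windows of measured genes. It lay in 41 of 208 windows (19.7%) of genes called and at least 4-fold higher in ATC, and in 17 of 227 windows (7.49%) of genes at least 4-fold lower. A gene can have several windows, so these are shares of windows and no test was made. CTCAAG, a core bound by Nkx2-1, lay in 15.9% of all windows, 14.4% of windows of measured genes, 14.9% of the higher and 13.7% of the lower. CACCTG, the E-box of Snail and Zeb factors, lay in 20.2%, 19.3%, 23.1% and 24.2%. None of these motifs contains another, and a match is a description, not a measured site. Windows of 2 envelope genes and 1 collagenase that rose are shown with TGANTCA in capitals, and that of a surfactant gene that fell with CTCAAG in capitals. They were picked for display, and most windows of their groups do not hold the motif. Sprr1a (chr3:92485832-92486131, minus strand) holds the AP-1 letters starting 146 and 116 bases before its start site, Ivl (chr3:92573686-92573985, minus strand) 116 bases before and Mmp13 (chr9:7272264-7272563, plus strand) 35 bases before. Sftpb (chr6:72304360-72304659, plus strand) holds CTCAAG 100 and 15 bases before.
Sprr1a: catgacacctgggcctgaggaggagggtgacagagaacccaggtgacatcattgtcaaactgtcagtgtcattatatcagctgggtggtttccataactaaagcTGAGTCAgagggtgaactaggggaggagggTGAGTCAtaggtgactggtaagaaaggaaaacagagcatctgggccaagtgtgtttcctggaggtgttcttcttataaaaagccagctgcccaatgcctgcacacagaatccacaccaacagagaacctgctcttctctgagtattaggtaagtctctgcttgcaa
Ivl: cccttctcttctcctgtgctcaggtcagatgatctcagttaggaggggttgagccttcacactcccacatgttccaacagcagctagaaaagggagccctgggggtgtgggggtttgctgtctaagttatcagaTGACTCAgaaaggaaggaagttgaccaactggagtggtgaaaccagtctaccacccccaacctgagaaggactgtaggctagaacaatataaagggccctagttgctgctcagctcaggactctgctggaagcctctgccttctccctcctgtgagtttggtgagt
Mmp13: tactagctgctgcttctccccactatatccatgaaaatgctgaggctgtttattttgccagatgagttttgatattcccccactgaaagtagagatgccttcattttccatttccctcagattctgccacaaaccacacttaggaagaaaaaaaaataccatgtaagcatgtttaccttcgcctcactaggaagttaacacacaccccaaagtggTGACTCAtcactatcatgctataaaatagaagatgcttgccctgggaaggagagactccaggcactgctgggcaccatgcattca
Sftpb: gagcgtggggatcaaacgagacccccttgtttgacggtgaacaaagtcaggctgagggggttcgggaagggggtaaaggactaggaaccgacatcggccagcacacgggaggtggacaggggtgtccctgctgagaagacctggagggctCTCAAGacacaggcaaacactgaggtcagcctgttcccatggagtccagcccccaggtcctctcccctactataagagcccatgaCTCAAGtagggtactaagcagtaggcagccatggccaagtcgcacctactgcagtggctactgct

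Braf was higher in ATC, and among genes downstream of it more were called higher than lower. Braf, the kinase at the head of the MAPK cascade, read 7.81, 7.95, 7.58 and 7.78 on PTC arrays 1 to 4 and 11.98, 11.62, 10.83, 10.29 and 11.84 on ATC arrays 1 to 5, with normal pools at 5.95 to 6.67. The difference of 3.54 (SE 0.33, adjusted p = 6.15e-05) rests on 1 probe set, and whether it reads an endogenous or an introduced copy was not tested. Dusp6, a phosphatase that ERK induces to limit itself, read 12.17 to 12.43 in PTC and 11.81 to 12.66 in ATC (difference -0.08, SE 0.17, adjusted p = 0.714). Etv4, an ERK-driven ETS factor, differed by -0.01 (SE 0.16, adjusted p = 0.966). Both were well above normal pools (9.83 to 10.38 and 6.5 to 7.05) in both tumour types. Of 20 measured genes of MAPK output, 8 rose and 3 fell (1 fell without PTC array 3, and 5 rose and 1 fell with the shared spread), and the median difference was -0.01. Among JK-titled arrays 7 rose and 5 fell. Over all genes 17.4% were called higher and 19.6% lower on the 9 arrays, so the 3 falls there were not above that share.

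The members that rose include immediate responders. Ier3, a survival factor, read 9.72 to 9.87 in PTC and 11.71 to 12.46 in ATC (difference 2.26, SE 0.14, adjusted p = 7.59e-06). Fosl1, an AP-1 subunit, rose from 6.43 to 7.23 in PTC to between 8.44 and 9.13 in ATC (difference 2.16, SE 0.2, adjusted p = 5.61e-05). The cytokine Lif rose by 1.69 (adjusted p = 0.000829), with its other probe set at 0.44, and Myc by 1.44 (adjusted p = 0.000415). Spred1, an inhibitor of Ras signalling, fell by 1.48 (adjusted p = 0.00105). Among 23 receptor tyrosine kinases and ligands 5 rose (3 without PTC array 2, 1 with the shared spread) and 3 fell. Neither count lay far from the shares over all genes (17.4% higher and 19.6% lower). Igf1r, the receptor of insulin-like growth factor, fell by 2.05 (adjusted p = 2.12e-05; its other probe set differed by -0.85), and Fgfr2 by 2.11 (adjusted p = 0.000311), the latter from 8.69 to 9.46 in PTC to between 6.49 and 7.83 in ATC. Hgfac, the protease that activates hepatocyte growth factor, rose by 2.78 (adjusted p = 0.00459) from 4.47 to 4.96 in PTC to between 5.73 and 9.39 in ATC. Met read 4.98 to 5.33 and 5.1 to 6.15, and Hgf 4.97 to 5.3 and 5.25 to 5.75, and neither was called (adjusted p = 0.116 and 0.0874).

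Single members of the TGF-beta family changed in both directions. Of 18 measured genes 8 rose and 4 fell (7 and 2 with the shared spread). The falls lay near the share over all genes (19.6%), and the rises lay above it (17.4%). Inhba, the subunit of activin A, read 8.46 to 9.04 in PTC and 11.18, 10.81, 11.41, 12.63 and 12.34 in ATC (difference 2.91, SE 0.36, adjusted p = 0.000303). Its relative Inhbb, the subunit of activin B, fell from 10.65 to 11.11 in PTC to between 8.11 and 9.22 in ATC (difference -2.28, SE 0.22, adjusted p = 8.77e-05), where another probe set differed by -0.36. Fst, or follistatin, which binds activins, rose by 2.5 and Tgfb1 by 1.71, while Bmp4 fell by 1.86, each without overlap. Of 13 measured targets of YAP and TEAD 7 rose and 1 fell, but the count of rises was 2 without PTC array 2, 3 without PTC array 1 or 3 and 4 without PTC array 4, and it was 2 with the shared spread. Ankrd1, a classic target of the pathway, was the clearest, at 7.13 to 8.25 in PTC and 10.78 to 11.35 in ATC (difference 3.44, SE 0.21, adjusted p = 7.03e-06).

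Many genes of cell division rose. Of 20 measured mitosis genes 15 rose and 0 fell, with a median difference of 1.07, and 11 rose among JK-titled arrays (10 without PTC array 2 or 3). With the shared spread 3 rose, a setting in which 968 of all 12394 genes did. Of 22 genes of DNA replication 12 rose and 1 fell, with 6 rises among JK-titled arrays, 6 without PTC array 2 or 3 and 4 with the shared spread. Bub1, a checkpoint kinase, read 6.74, 5.75, 5.84 and 6.68 in PTC and 7.99, 7.5, 9.3, 8.71 and 9.38 in ATC (difference 2.32, SE 0.41, adjusted p = 0.00211), although its other probe set differed by 0.38. Birc5, or survivin, rose by 1.62 (adjusted p = 0.00274), Cdk1 by 1.51 and the replication factor Cdc45 by 1.55. Top2a, a topoisomerase of dividing cells, rose by 1.46, with its other probe set at 0.07. Mki67, the Ki-67 antigen, overlapped, with 8.46 to 9.65 in PTC and 9.63 to 10.27 in ATC. Its call (difference 0.85, adjusted p = 0.0267) was lost without PTC array 2 or 3 or ATC array 3 or 5, up to adjusted p = 0.0824 without PTC array 2.

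Among 15 regulators of G1, 5 rose and 4 fell (3 and 1 with the shared spread). Over all genes 17.4% were called higher and 19.6% lower. The rises lay above their share, and the falls not far above theirs. Cdkn2a, which encodes the brakes p16 and p19, rose, from 6.72, 5.13, 5.02 and 5.46 in PTC to 8.13, 8.21, 8.04, 8.56 and 7.57 in ATC (difference 2.52, SE 0.34, adjusted p = 0.000467). Ccnd2, or cyclin D2, fell by 1.45 (adjusted p = 0.000359), and its 6 other probe sets all differed downwards. Another inhibitor, Cdkn2c, fell by 0.74 (adjusted p = 0.00564), and Cdk6, a kinase that drives G1, rose by 1.15 (adjusted p = 0.00342), so both kinds of regulator moved in both directions. Cdkn1b, an inhibitor as well, fell by 0.74 (adjusted p = 0.0457), a call lost when any single PTC array was left out or without ATC array 1, 2 or 5 (up to adjusted p = 0.124 without PTC array 2), and its mean of probe sets differed by -0.20.

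**Figure D4:**
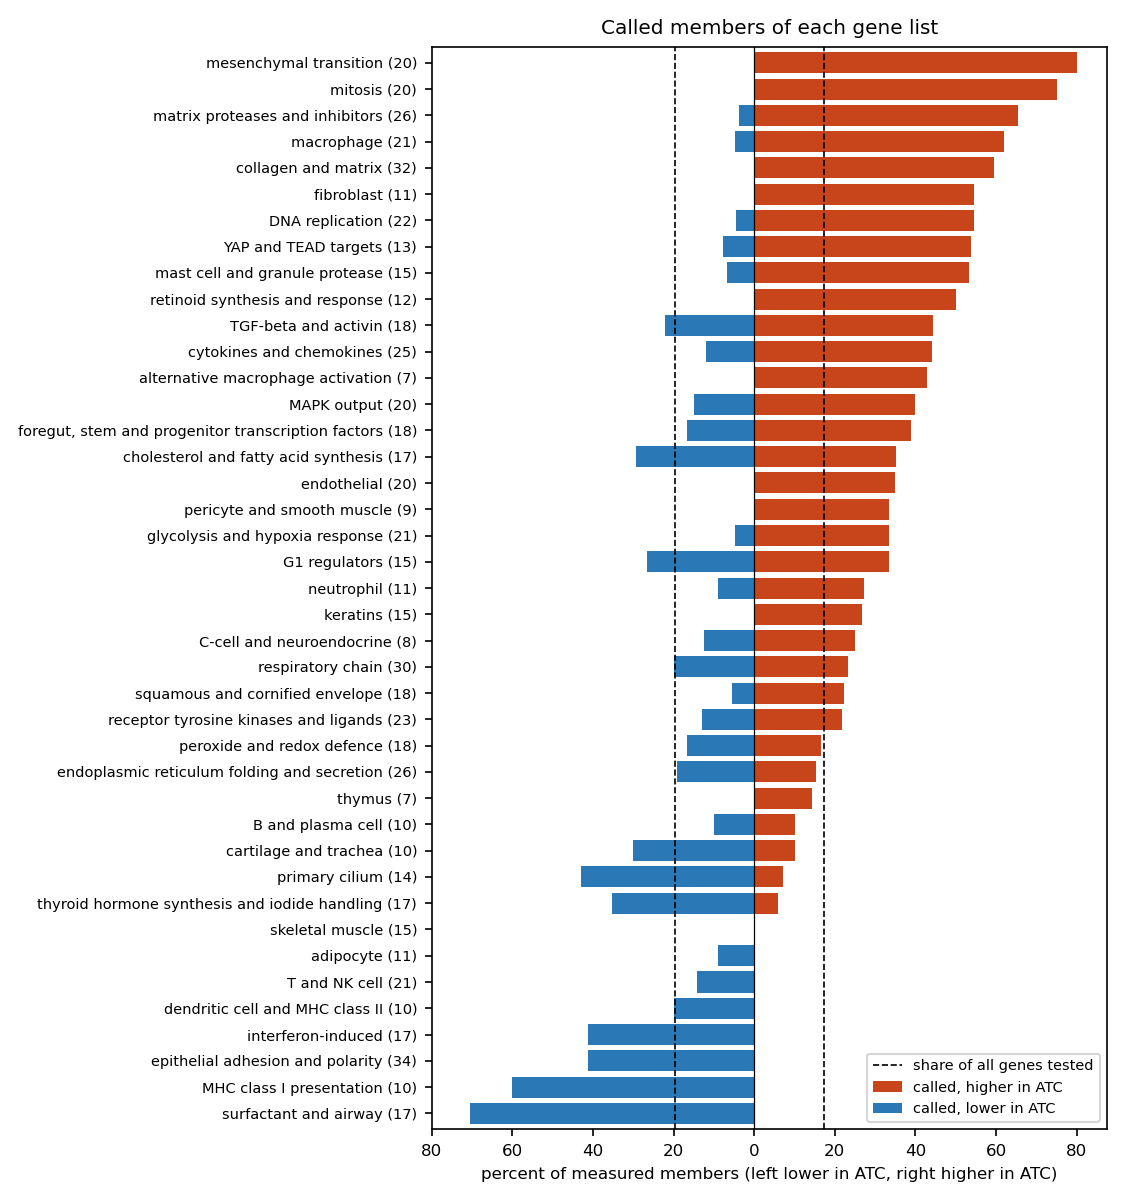
Percent of the measured members of each gene list that were called higher in ATC (orange, to the right) and lower in ATC (blue, to the left), for lists with at least 7 measured members, whose number stands in brackets. Dashed lines mark the shares over all 12394 genes (17.4% higher and 19.6% lower); mesenchymal, mitosis, protease and macrophage lists reach furthest right, and surfactant, antigen presentation and cilium lists furthest left.

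Lipid synthesis split into 2 arms, a grouping made after the values were seen. Of 17 measured genes of cholesterol and fatty acid synthesis 6 rose and 5 fell (5 and 2 with the shared spread). All 6 that rose are among the 9 genes of the sterol arm (median difference 1.04), and all 5 that fell are among the 8 of the fatty acid arm (median difference -1.02). Sqle, the squalene epoxidase, read 6.99 to 7.4 in PTC and 8.99, 8.95, 9.1, 10.35 and 9.81 in ATC (difference 2.23, SE 0.29, adjusted p = 0.00037). Cyp51, a demethylase further along the sterol path, rose by 2.13 (adjusted p = 0.00019). Srebf2, the regulator of sterol genes, rose by 1.42 (adjusted p = 4.69e-05) and the prenyl synthase Fdps by 1.92 (adjusted p = 0.00438), although other probe sets differed by 0.19 and -0.03. Fasn, the fatty acid synthase, went from 11.68 to 11.84 in PTC to 9.97, 9.79, 9.39, 9.85 and 9.38 in ATC (difference -2.07, SE 0.14, adjusted p = 1.16e-05). Srebf1, the regulator of fatty acid genes, fell by 1.38 (adjusted p = 4.65e-05), Me1, the malic enzyme, by 1.9 and Elovl6, an elongase, by 1.64, all without overlap. Markers of fat cells, which carry fatty acid genes at high levels, fell in 1 of 11 (4 without ATC array 5) and rose in 0. Their mean level was 6.84 to 7.69 in PTC and 5.95 to 7.12 in ATC, and their part in the fall was not tested.

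**Figure D5:**
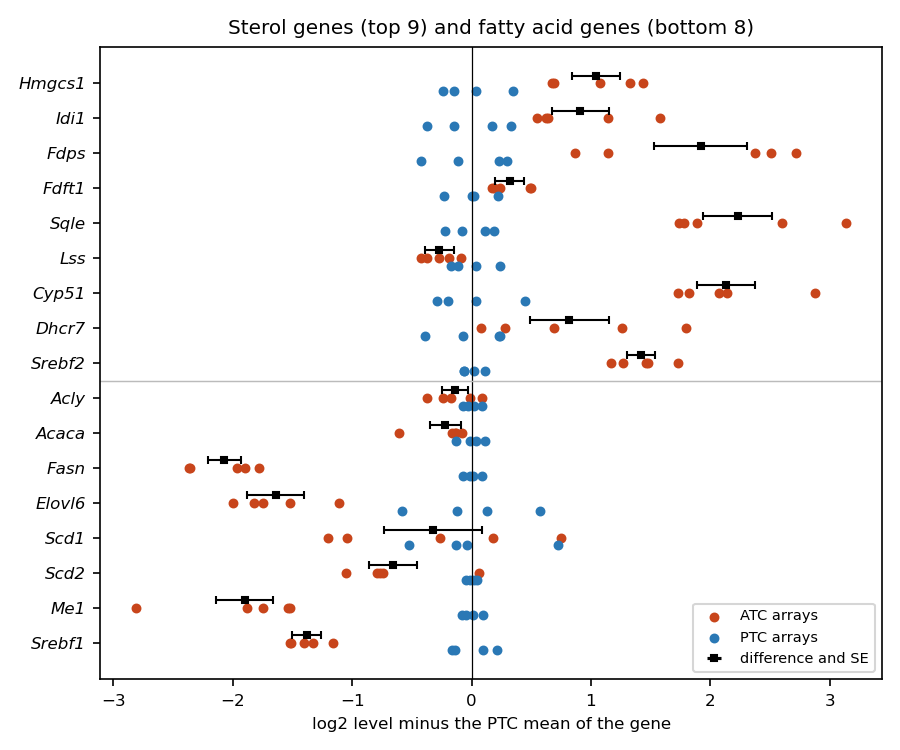
Log2 level minus the PTC mean of each gene (horizontal axis) for the 9 sterol genes (above the line) and 8 fatty acid genes (below it), with PTC arrays in blue, ATC arrays in orange and the fitted difference with its SE in black. Sqle (2.23), Cyp51 (2.13) and Srebf2 (1.42) lie to the right, and Fasn (-2.07), Me1 (-1.9) and Srebf1 (-1.38) to the left, without overlap between the groups.

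Of 21 measured genes of glycolysis and the hypoxia response 7 rose (4 with the shared spread) and 1 fell, among them Hk2, a hexokinase of tumours, by 1.46 (adjusted p = 0.000304), while Pfkfb3, which makes an activator of glycolysis, fell by 1.44 (adjusted p = 0.000612; its other probe set differed by -0.08). Of 30 genes of the respiratory chain 7 rose and 6 fell, with a median of -0.07, and without PTC array 3 it was 2 in each direction. With the shared spread it was 0 in each. Ppargc1a, a master regulator of mitochondria, fell by 1.77 (adjusted p = 0.00761), and normal pools at 9.65 to 10.33 stood above both tumours. Of 26 genes of protein folding and secretion 4 rose and 5 fell (1 rose without PTC array 2, 2 without PTC array 3 and 0 with the shared spread), and of 18 genes of peroxide and redox defence 3 rose and 3 fell (1 rose without PTC array 2, 0 with the shared spread), one of them Sod1, a superoxide dismutase, which fell by 0.9 (adjusted p = 0.000372). The counts of the respiratory chain, folding and redox lists lay near the shares over all genes (17.4% higher and 19.6% lower). Of 14 measured genes of the primary cilium 1 rose and 6 fell (0 and 3 with the shared spread). Bbs2, part of the complex that carries proteins to the cilium, read 8.07 to 8.62 in PTC and 6.64 to 6.96 in ATC (difference -1.5, SE 0.13, adjusted p = 5.05e-05).

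Retinoid and inflammatory signals rose. Of 12 measured genes of retinoid synthesis and response 6 rose and 0 fell. Aldh1a3, an enzyme that makes retinoic acid, read 7.47, 7.07, 6.88 and 8.33 in PTC and 11.25, 12.01, 12.09, 11.12 and 12.86 in ATC (difference 4.43, SE 0.39, adjusted p = 5.14e-05). Aldh1a2, with the same reaction, rose by 3.25 (adjusted p = 4.46e-06) and Crabp2, which carries retinoic acid to its receptors, by 3.17 (adjusted p = 0.000461). Of 25 cytokines, chemokines and related genes 11 rose and 3 fell (7 rose without PTC array 2, and 2 rose and 0 fell with the shared spread). Ptgs2, or cyclooxygenase 2, which makes prostaglandins, read 6.57 to 7.65 in PTC and 10.6, 10.03, 10.51, 12.18 and 10.97 in ATC (difference 3.8, SE 0.41, adjusted p = 0.000136). Il6 rose by 2.41 (adjusted p = 0.000111) and the chemokine Ccl9 by 1.74 (adjusted p = 0.00116), again without overlap.

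Macrophage genes rose. Of 21 measured macrophage markers 13 rose and 1 fell, with a median difference of 0.92. Among JK-titled arrays 9 rose. With the shared spread 2 rose, a setting in which 968 of all 12394 genes did. The mean level of the list was 8.81 to 9.73 in PTC and 9.9 to 10.45 in ATC. Mrc1, a mannose receptor, read 10.94, 10.13, 9.53 and 10.26 in PTC and 11.75, 11.85, 12.12, 11.42 and 12.08 in ATC (difference 1.63, SE 0.26, adjusted p = 0.00119). Cd14, part of the receptor for bacterial lipopolysaccharide, rose by 1.98, the integrin Itgam by 2.14, the Fc receptor Fcgr3 by 1.58 and the complement chain C1qa by 1.26, each without overlap. Marco, a scavenger receptor of some tissue macrophages, fell instead, from 6.85 to 7.77 in PTC to between 4.53 and 5.37 in ATC (difference -2.25, adjusted p = 0.000111). Of 7 measured genes of alternative macrophage activation 3 rose and 0 fell (2 rose with the shared spread), and only 4 of the 7 had a positive difference. The median difference was 1.32, and 0.5 with the bare-number ATC arrays alone. Among those that rose, Arg1, the arginase of alternatively activated macrophages, did so by 4.2 (adjusted p = 0.000331). Ccl24, a chemokine for eosinophils, rose by 2.59 (adjusted p = 0.0015).

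Of 15 markers of mast cells and granule proteases 8 rose and 1 fell. Tpsab1, a mast cell tryptase, read 5.53 to 6.1 in PTC and 7.82 to 8.91 in ATC (difference 2.55, SE 0.21, adjusted p = 3.01e-05), and Fcer1a, the chain of the IgE receptor, rose by 2.15 (adjusted p = 8.3e-05). Granzymes D and E, proteases of cytotoxic cells, moved apart. Gzmd rose by 3.38 (adjusted p = 0.0333) and differed by 1.27 among JK-titled arrays, where it was not called (adjusted p = 0.245). Gzme fell by 2.41 (adjusted p = 0.0259) from the high PTC levels of 12.44 to 13.84. Leaving out 1 array ended the call of Gzmd for PTC arrays 2 to 4 and ATC arrays 3 and 5 (up to adjusted p = 0.0976 without PTC array 2). For Gzme it did so for PTC arrays 1, 3 and 4 (up to adjusted p = 0.0703 without PTC array 3). Of 21 T and NK cell markers 0 rose and 3 fell (0 with the shared spread), and of 10 dendritic cell and class II markers 0 rose and 2 fell (0 fell without PTC array 1 or with the shared spread). Of 10 B and plasma cell markers 1 rose and 1 fell. The 1 that rose was Sdc1, which epithelial cells also carry, by 1.97, and the 1 that fell was Cd79b, a chain of the B cell receptor, by 2.03 (adjusted p = 0.000152). Of 11 neutrophil markers 3 rose and 1 fell (0 and 0 with the shared spread), the last being Lcn2, or lipocalin 2, by 2.95 (adjusted p = 0.00423), which inflamed epithelia make as well. Over all genes 17.4% were called higher and 19.6% lower. Falls of the T and NK, dendritic, B cell and neutrophil lists lay near or below the latter share. Rises of the neutrophil list lay above the former, but on 3 genes.

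Antigen presentation fell by small steps. Of 10 measured genes of MHC class I presentation 6 fell and 0 rose, with a median difference of -0.7, and 5 fell among JK-titled arrays. Tap2, which forms the peptide transporter with Tap1, read 8.43 to 8.76 in PTC and 7.53, 7.92, 7.32, 7.71 and 7.38 in ATC (difference -1.07, SE 0.14, adjusted p = 0.000464). Tap1 fell by 1.03, although its 3 other probe sets differed by -0.07, -0.29 and -0.12, and Tapbp, a loading factor, by 0.83, where the other probe set differed by 0.08. H2-K1, the class I heavy chain, fell by 0.78 (adjusted p = 0.00586), from 12.49 to 13.06 in PTC to between 11.59 and 12.24 in ATC. Of 17 interferon-induced genes 7 fell (1 with the shared spread) and 0 rose. Ifit3 fell by 1.02 (adjusted p = 0.0113) and the RNA sensor Ifih1 by 0.87 (adjusted p = 0.00421). Normal pools were near or above PTC for Tap2 (8.31 to 9.06) and H2-K1 (13.01 to 13.49).

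Among further steep gains, several were close to even across the 5 tumours. Cpe, a carboxypeptidase of secretory granules, read 8.26 to 9.02 in PTC and 13.71, 13.68, 13.93, 13.59 and 13.9 in ATC (difference 5.09, SE 0.15, adjusted p = 1.21e-07), but its other probe set differed by 0.58. Prkg2, a kinase driven by cyclic GMP, rose by 5.19 (adjusted p = 5.48e-06), with its other probe set at 3.91. Acsl6, a fatty acyl-CoA ligase, rose by 4.83 and Pcdh7, a protocadherin, by 4.59, whose other probe set differed by 0.56. Others varied more. Msln, or mesothelin, a surface protein of the mesothelium and of several cancers, read 5.15 to 6.31 in PTC, 11.34 to 12.23 on 4 ATC arrays and 8.58 on array 4 (difference 5.47, SE 0.67, adjusted p = 0.000282). Ctse, a cathepsin of the stomach lining, read 6.48 to 6.72 in PTC, 11.56 to 13.28 on 4 ATC arrays and 7.52 on array 4 (adjusted p = 0.00424). Klrc1, an NK cell receptor, rose by 4.67, the surface protein Tspan8 by 5.06 and the milk fat protein Btn1a1 by 4.62, with smaller differences in their other probe sets. The neuropeptide Calcb rose by 3.82 (adjusted p = 4.94e-05). Acan, the proteoglycan aggrecan, rose by 3.71, in contrast to its partner in cartilage Comp, which fell by 2.

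Not every ATC array carried every change. Of 776 genes called and at least 2-fold lower, 715 had no ATC array inside the PTC range and 57 had exactly 1. That single array was array 2 for 26 genes, array 4 for 19, array 3 for 8, array 1 for 3 and array 5 for 1. Of 841 genes called and at least 2-fold higher, 741 had no overlapping array and 72 had exactly 1, which was array 4 for 29 genes, array 2 for 21, array 1 for 12, array 5 for 6 and array 3 for 4. Counting also the genes that several arrays share, array 2 overlapped for 43 of the higher genes, array 1 for 35, array 4 for 33, array 5 for 12 and array 3 for 8. For the lower genes these counts were 29 on array 2, 20 on array 4, 10 on array 3, and 3 each on arrays 1 and 5. Some variable genes are markers of neighbouring tissue. Pth, parathyroid hormone, read 14.2, 11.44, 4.27, 4.37 and 5.62 on ATC arrays 1 to 5 and 4.65, 10.51, 10.77 and 10.13 on PTC arrays 1 to 4, and of 3 parathyroid markers 0 were called. Myh2, a myosin of skeletal muscle, read 5.48 on ATC array 5 and 9.03 to 11.95 on the other ATC arrays, and of 15 muscle markers 0 were called (4 rose without ATC array 5), with means of 9.61 to 11.14 in PTC and 8.02 to 11.94 in ATC. Ighm, the heavy chain of immunoglobulin M, read 13.61 on ATC array 5 and 6.75 to 7.61 on the other 4. Nrk, a kinase of embryonic tissue, spanned 4.96 on ATC array 4 to 12.35 on array 3. The part of neighbouring tissue in the differences above was not tested.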

How the data were processed

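Total RNA of 24 samples was hybridised to Affymetrix Mouse430A_2 arrays, and 22690 probe sets were read. The deposited values are log2 levels made by the authors with RMA in Partek, per the submitters' processing notes (versions not given in the sources used here). RMA is meant to equalise the distribution of arrays, so a shift shared by all genes cannot be seen. The deposited distributions still differed. The SD of all values was 2.364 to 2.389 in PTC and 2.386 and 2.37 on the JK-titled ATC arrays. On the bare-number ATC arrays it was 2.486 to 2.5. With quantile normalization again 4612 genes were called, and the respiratory chain list went to 3 rises and 8 falls. Precision is limited by having 9 arrays. The platform's annotation (dated 2016) gave 1 gene symbol for 20393 probe sets, several for 691 and none for 1606. Of the 20393, 20364 were matched to RefSeq genes of GRCm38.p6 and 29 kept their symbol. Each of 12394 genes was read by its probe set with the highest mean over the 24 arrays.

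The 5 ATC and 4 PTC arrays were fitted alone with limma 3.58.1 (lmFit and eBayes) in R 4.3.3, with Benjamini-Hochberg adjustment over all 12394 genes and a threshold of 0.05. Tested on simulated data with 200 of 12394 genes changed, the fit recovered 65% of 2-fold and 88% of 4-fold changes, and 7.83% of its calls were false. The share of genes changed there is far below the 37% called in the data. The adjusted p depends on that share, so these rates need not hold for this comparison. Replicates were numbered in record order, which does not pair samples. All columns were mapped (0 left out).

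The groups, members and 45 gene lists (795 genes, 712 measured) were chosen with earlier results of these data known. Named genes are the 15 largest non-overlapping rises and falls, up to 4 called members of a list in each direction, the 10 most variable genes within ATC (mean of at least 8) and a fixed set of thyroid, epithelial and signalling genes. The uncalled Slc5a5, Dio1, Epcam, Krt8, Krt19 and Etv4 and some called genes outside that rule were chosen after their values were seen. The alternatives were a spread shared by all 24 arrays, the title series as a block or split, the mean of probe sets, a filter on genes with a mean under 6, quantile normalization or median centring again, limma's trend and robust options, array weights, a test against 2-fold, and leaving out each array.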

Additional observations from a re-analysis of the deposited data

Results flagged for a closer look

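Within groups of 4 or 5 arrays, single arrays stood far from the others in 25 of 322 groups of gene values and 9 of 90 groups of mean list levels, counts that the choice of genes inflates, since some were named for their spread within ATC. In groups not chosen that way chance would flag about 1 in 20. No cause was tested.

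ATC array 4 held 12 of these gene values. It was the high array for Tg (13.48), Iyd (9.99), Tshr (6.15), Dio1 (7.90) and Pdgfrb (12.87). It was the low array for Hmga2 (11.56), Msln (8.58), Cdh1 (10.94), Epcam (10.57), Krt8 (13.14), Krt18 (13.10) and Krt19 (8.47). Its mean level was low for the epithelial list (7.57) and the retinoid list (8.26) and high for the folding and secretion list (10.93).

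ATC array 2 was the high array for Krt4 (12.74), Muc5b (12.52) and the surfactant and airway list (9.81). ATC array 3 was high for Sftpa1 (8.92), and ATC array 1 was low for Cdh2 (6.67) and H2-K1 (11.59). ATC array 5 was high for Ighm (13.61) and low for Me1 (8.04) and Sod1 (11.26).

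Among PTC arrays, array 2 was low for Prkg2 (6.78) and high for Ppargc1a (8.10) and the thyroid synthesis list (8.0). Array 4 was low for Slc34a2 (9.86), the respiratory chain list (11.32) and the neutrophil list (6.58). Array 1 was low for Sod1 (12.26), Pth (4.65) and the parathyroid list (4.94), and high for the list of alternative macrophage activation (9.41).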

How the results depend on the processing

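Of 161 named genes 144 were called, and 0 of these reversed under any alternative with 1 value per gene. The fit of every probe set was not part of that count. Further probe sets of Fdps and Tapbp had the opposite sign, as given above. A test against 2-fold ended 73 of the calls, a spread shared by all 24 arrays 35, JK-titled arrays alone 6 and the title series as a block 6. Every PTC array is JK-titled, so the block fit gives the same differences as JK-titled arrays alone. These fits vary only in the spread used and are not separate checks. The count of 4587 genes became 2127 (968 higher, 1159 lower) with the shared spread, 381 (173 higher, 208 lower) against 2-fold, and 7301 (3679 higher) when every probe set was tested. Leaving out 1 array gave 3264 (without PTC array 2) to 4906 (without ATC array 2).

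With the title series as a block, counts of rises became 9 of 20 for the mesenchymal list, 8 of 32 for collagen and matrix, 9 of 20 for mitosis, 6 of 22 for DNA replication, 6 of 25 for cytokines and 2 of 13 for YAP targets, and falls became 9 of 34 for the epithelial list.

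In the fits with 1 value per gene, reversals touched uncalled genes. With the title series as a block and with JK-titled arrays alone, Slc5a5 differed by 0.13, Etv4 by 0.04, Pth by 3.81, Ighm by -0.11 and Muc5b by 0.25. With bare-number ATC arrays alone, Scgb3a1 differed by -0.21, Cdh1 by -0.07, Krt19 by -0.20, Krt4 by -0.10 and Dusp6 by 0.12, and with array weights Dusp6 by 0.00 and Etv4 by 0.04. Leaving out 1 array gave -0.03 to 0.39 for Cdh1, -0.13 to 0.95 for Krt19, -0.21 to 0.01 for Dusp6, -0.11 to 0.10 for Etv4, -0.46 to 1.26 for Ighm and -1.07 to 0.55 for Myh2. The cause was not tested. No paired analysis was possible because the labels carry no replicate numbers.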
